A study of Mus musculus with 15 samples.

Results

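Macrophages isolated from nervous tissue, namely sympathetic ganglia and brain, were compared with macrophages of spleen and of fat. The comparison takes the mean of the ganglion group (SAM ganglia in the labels, for sympathetic-associated macrophages) and the microglia, each weighted equally, against the equally weighted mean of spleen macrophages (SpM), macrophages of subcutaneous fat (sATM) and of visceral fat (vATM), the latter both called anti-inflammatory in the labels. It uses 13 of the 15 libraries of the series: 3 of ganglia, 3 of microglia, 3 of spleen, 2 of subcutaneous fat and 2 of visceral fat. The remaining 2 libraries came from sympathetic nerve fibers and are given only as values beside the others. A gene was described as shared by the nervous-tissue macrophages when the comparison called it and when the mean levels of ganglia and of microglia both lay above, or both below, those of all 3 other groups.

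All groups were C57BL/6J mice sampled ex vivo, with no transgene or treatment described in the labels, whose titles carry the tag ND for every library without saying what it stands for, and cells were sorted as double positive for F4/80 and CD45, surface proteins of macrophages and of leukocytes. RNA was sequenced by a low-input protocol from total RNA. Tissue of 10 mice was used. Since no label ties a library to an animal, p-values here reflect how far libraries vary, and that variation could be technical. The tissues were digested differently: brain, spleen and both fat depots had 30 minutes of collagenase at 37 °C, whereas ganglia had 10 minutes of collagenase and then 30 minutes of trypsin. The ganglion group and its digestion therefore cannot be told apart.

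Tissue macrophages share a myeloid program but take on further genes from signals of the organ they live in. Microglia, the resident macrophages of the brain parenchyma, depend on TGF-beta signaling and on the transcription factor SALL1, sense neuronal fractalkine through CX3CR1 and extracellular nucleotides through P2Y receptors, and are known by genes such as Tmem119, Siglech, Trem2 and Olfml3. Macrophages are also found along peripheral nerves and in ganglia, where they lie against neuronal cell bodies and axons. Spleen red pulp macrophages clear aged red cells, and fat macrophages take up lipid and cell debris.

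Levels are given as counts per M counts (CPM) after scaling of the libraries by TMM. The tables held 2.55 to 12.5 M counts per library, of which Rn45s, Lars2 and Mir6236, rows that collect ribosomal RNA reads, took 46.1% to 71.5%, so 1.37 to 4.82 M counts carried the other genes. A level of 3 counts corresponded to 0.24 to 1.18 CPM in these libraries before scaling. Libraries of a group correlated at 0.775 to 0.955 on log2 CPM, and ganglia with microglia at 0.655 to 0.86. Background DNA, measured as raw counts over olfactory receptor genes per M raw counts, averaged 534 in microglia, 337 in ganglia, 278 in spleen, 199 in subcutaneous fat and 150.0 in visceral fat, and was highest in microglia 2 (1043) and ganglia 3 (821). Its means thus moved with the comparison, but libraries overlapped. Microglia 2, microglia 3 (527) and ganglia 3 lay above every spleen and fat library (31.6 to 474). Microglia 1 (32.6) and ganglia 1 and 2 (49.8 and 140) lay within that range. Without microglia 2 and ganglia 3, 558 of the 616 higher and 362 of the 435 lower shared genes still in the test were again shared.

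The comparison called 864 genes higher in the nervous-tissue macrophages (5.9% of the 14648 tested) and 789 lower (5.39%), by edgeR's quasi-likelihood F-test at a Benjamini-Hochberg adjusted p below 0.05 and a log2 difference of at least 1. Of these, 626 were shared higher (4.27% of all tested genes) and 435 shared lower (2.97%), together 7.24% of the genes tested, where 11.3% were called in either direction. The position of the group means alone, with no test, placed 22% of all tested genes above and 11.6% below the other 3 groups. In 262 of the shared higher genes (1.79% of all tested) and 161 of the shared lower genes (1.1%), all 6 nervous-tissue libraries lay beyond all 7 others, a position that 2.03% and 1.42% of all tested genes held whether called or not. When each of the 6 pairs of a nervous-tissue and another group had to pass on its own, 53 genes were higher (0.362%) and 12 lower (0.0819%). The stricter counts rested on single libraries: they were 18 and 2 without visceral fat 1, 22 and 1 without ganglia 2, 29 and 6 without visceral fat 2, 35 and 5 without ganglia 3, and 35 and 4 without subcutaneous fat 2, and the lower count was 5 without spleen 2 and 7 without spleen 3. Bmpr2 lay just inside the limits for a shared gene (log2 difference 1.003, adjusted p = 0.04) and C1qb just outside (0.99, adjusted p = 0.0136). The counts differed between the deposited tables: in the raw gene-body table, which both keeps DNA reads and counts introns and where the spread between libraries was wider, 68 genes were shared higher and 74 lower, among them 63 and 66 of the genes above, although 88.0% of the shared higher and 60.9% of the shared lower genes held the same position there (29.1% and 6.57% of all tested genes).

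All 4 markers chosen for the comparison, Cx3cr1, Siglech, Trem2 and Tmem119, were among the shared higher genes. They did not lead by the gap in mean log2 CPM between the nearer nervous-tissue group and the nearest other. Olfml3 (8.58) and Pmepa1 (5.68) were ahead of all 4, and Tmem119 (5.59) was ahead of Cx3cr1 (3.75), Siglech (2.99) and Trem2 (2.47). Cx3cr1 (chr9:120048683-120068296, minus strand, mm10), the receptor for the neuronal chemokine fractalkine, measured 2134, 1486 and 1827 CPM in the ganglion libraries, 5194, 4441 and 4308 in microglia, 14.1, 8.8 and 15.2 in spleen, 327 and 54.3 in subcutaneous fat, and 99.0 and 72.4 in visceral fat. No nervous-tissue library came near any of the others, and subcutaneous fat 1 was the highest of the latter. The log2 difference was 5.62 ± 0.37 (SE; adjusted p = 5.18e-08). Siglech (chr7:55768184-55778925, plus strand), a sialic acid-binding lectin of microglia that also marks plasmacytoid dendritic cells, measured 319, 171 and 211 CPM in ganglia and 1414, 862 and 1114 in microglia, against 1.32 to 2.08 in spleen, 3.83 and 8.46 in subcutaneous fat, and 27.5 and 28.7 in visceral fat. Its groups did not overlap, and visceral fat stood above spleen in every library (6.23 ± 0.26, adjusted p = 2.8e-10).

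Trem2 (chr17:48346401-48352276, plus strand), a lipid-sensing receptor that signals through the adaptor Tyrobp, reached 147, 289 and 255 CPM in ganglia and 769, 1138 and 966 in microglia. Spleen libraries had 0.167, 0.11 and 0 CPM, subcutaneous fat 15.3 and 46.6, and visceral fat 33.6 and 46.9. Spleen was therefore at or below 3 counts, fat intermediate and the nervous-tissue groups highest (6.44 ± 0.33, adjusted p = 1.86e-09). Tyrobp itself did not pass the test (-0.16 ± 0.14, adjusted p = 0.487). Tmem119 (chr5:113793729-113800352, minus strand), a membrane protein used to tell microglia from other brain macrophages, measured 118, 155 and 182 CPM in ganglia and 1058, 1428 and 1586 in microglia, but at most 4.46 in any spleen library and at most 1.04 in any fat library. The difference was 8.58 ± 0.36 (adjusted p = 2.8e-10). Of the sort markers, Adgre1, which encodes F4/80, did not pass (0.09 ± 0.16, adjusted p = 0.761), and Ptprc, which encodes CD45, was lower (-1.40 ± 0.21, adjusted p = 0.00011), with visceral fat libraries at 391 and 347 CPM overlapping ganglia at 218 to 348.

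The promoters of these genes were searched for GAGGAA, letters found in binding sites of the myeloid factor PU.1, because PU.1 is shared by all the groups compared. The sequences of Trem2 (chr17:48346151-48346410, plus strand) and Siglech (chr7:55767934-55768193, plus strand) are shown as the marker genes with a match, from 250 bases before the annotated start to 10 after it, 5′ to 3′ on the gene's strand. They come from RefSeq, build GRCm38.p6, and capitals mark GAGGAA or its reverse complement TTCCTC.
Trem2: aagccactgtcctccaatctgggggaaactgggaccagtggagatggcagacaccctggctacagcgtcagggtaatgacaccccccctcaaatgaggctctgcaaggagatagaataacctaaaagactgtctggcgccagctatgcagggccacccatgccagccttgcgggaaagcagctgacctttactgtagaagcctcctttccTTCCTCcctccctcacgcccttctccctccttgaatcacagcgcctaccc
Siglech: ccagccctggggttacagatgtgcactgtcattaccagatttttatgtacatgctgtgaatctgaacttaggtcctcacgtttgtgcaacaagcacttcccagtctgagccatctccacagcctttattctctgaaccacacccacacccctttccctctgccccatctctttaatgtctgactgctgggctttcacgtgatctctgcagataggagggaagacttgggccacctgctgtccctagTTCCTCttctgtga
The match began 40 bases before the start in Trem2 and 4 bases before it in Siglech. In windows of 250 bases before to 50 after the start, read on both strands, 30.1% of the 468 shared higher promoters in the RefSeq table held the letters, against 28.3% of all 27025 promoters and 27.5% of the 11151 tested genes in it. Among the 10 genes with the widest gap between nervous-tissue and other groups, 5 had a promoter in the table and 1 of them, Siglech, held a match. The shares were close to each other.

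**Figure D1:**
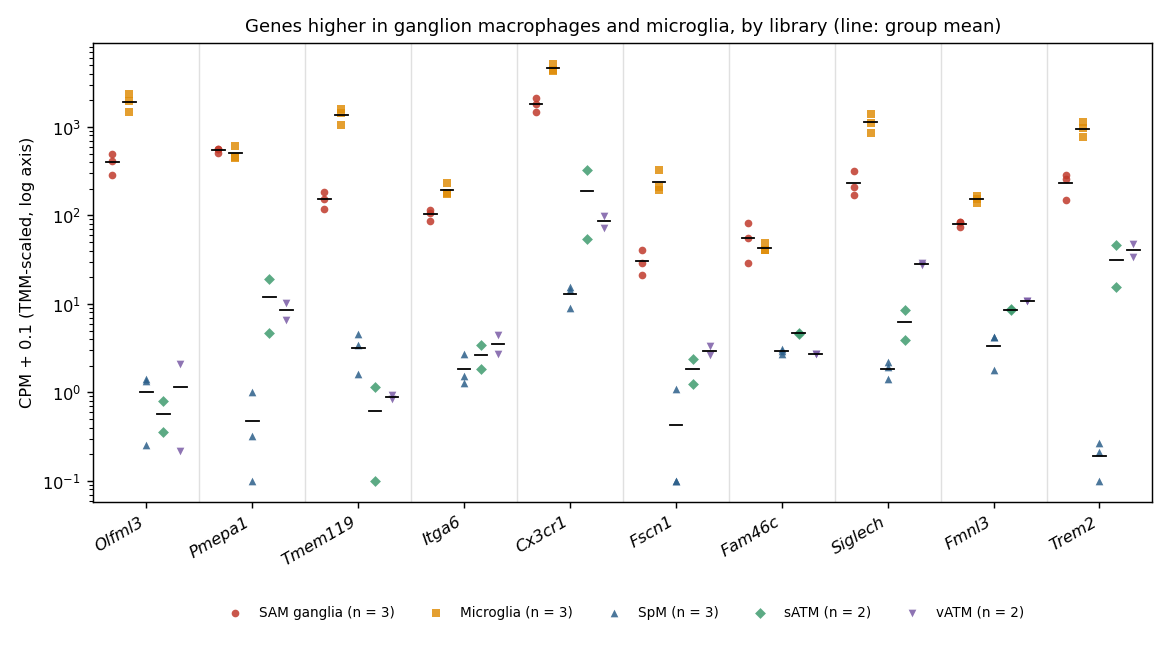
Level of 9 of the genes with the widest gaps and of Trem2, all higher in both nervous-tissue groups, in CPM plus 0.1 on a log axis, with 1 point per library and a line at each group mean. In every gene all 6 libraries of ganglia and microglia lie above the 7 of spleen and fat. Pmepa1 and Fam46c have overlapping libraries of ganglia and microglia, and the others have a higher mean in microglia.

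Itga6, Fscn1 and Fmnl3 were also among the 10 genes with the widest gap. Itga6 (chr2:71786939-71858427, plus strand), the laminin-binding integrin alpha 6, measured 106, 116 and 85.8 CPM in ganglia and 233, 175 and 177 in microglia, against 1.17 to 4.32 in the 7 other libraries. Every nervous-tissue library was far above every other one, and the difference of 5.87 ± 0.25 (adjusted p = 2.8e-10) rested on low levels in spleen and fat alike. Fscn1 (chr5:142960355-142973189, plus strand), the actin-bundling protein fascin, measured 21.1, 40.9 and 28.7 CPM in ganglia and 193, 322 and 209 in microglia, with 0 in 2 spleen libraries and at most 3.21 elsewhere (6.09 ± 0.42, adjusted p = 7.04e-08). Fmnl3 (chr15:99317212-99370482, minus strand), a formin that elongates actin filaments, measured 73.1 to 84.4 CPM in ganglia, 136 to 167 in microglia, and 1.69 to 10.8 in the others (4.04 ± 0.20, adjusted p = 1.21e-09). Of the 18 integrin genes tested, 3 were shared higher (Itga6, Itgb5 and Itgav) and 1 shared lower (Itgax), beside 4.27% and 2.97% of all tested genes.

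Olfml3, Pmepa1 and Fam46c belonged to the same 10. Olfml3 (chr3:103735394-103738001, minus strand), a secreted olfactomedin-like protein, measured 286, 415 and 488 CPM in ganglia and 1492, 2334 and 1969.9 in microglia, and between 0.12 and 1.98 in spleen and fat, near the level of 3 counts. Its difference of 10.03 ± 0.47 (adjusted p = 1.86e-09) is accordingly imprecise at its lower end. Pmepa1 (chr2:173224465-173276533, minus strand), a TGF-beta target that restrains the same pathway, measured 559, 506 and 568 CPM in ganglia and 447, 602 and 459 in microglia, which overlapped (ganglia minus microglia 0.12 ± 0.43). Spleen had 0.916, 0.22 and 0 CPM, subcutaneous fat 18.9 and 4.63, and visceral fat 10.2 and 6.43, so that no library overlapped, though the 0 in spleen stood against 357 raw counts (7.21 ± 0.40, adjusted p = 1.03e-08). Fam46c (chr3:100471536-100489192, minus strand), a poly(A) polymerase, measured 55.3, 28.8 and 82.4 CPM in ganglia, 48.3, 40.4 and 40.5 in microglia and 2.60 to 4.60 in the others (3.91 ± 0.25, adjusted p = 1.19e-08). Of 119 genes that met the naming conditions, Fmnl3 was the last taken, with a gap of 2.88 log2 units to the nearest other group, and Arsb the first left out, with 2.72.

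Some values of 0 in the corrected table stood against many raw counts. Among the shared higher genes 9 had a whole group listed at 0 against at least 100 raw counts (among them Ikbkg, Nav2, Neo1, Nf1, Nkain2, Plxdc1, Rbfox1 and Unc13c), and 2 among the shared lower (Gm21975 and Nr6a1). A 0 against such raw counts in at least 1 library occurred in 146 of the shared higher and 96 of the shared lower genes. The 9 higher genes described above from those with the widest gaps, and the 10 lower genes described below, were called in the raw table too.

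Most of the microglial signature was found in the ganglion macrophages as well, at a lower level. Of 25 signature genes, 22 were shared higher (88% against 4.27% of all tested genes), and P2ry13, Csf1r and Lag3 were called higher without meeting the position rule. Among the shared ones, Golm1, Ltc4s and Fcrls had nervous-tissue libraries that overlapped those of spleen or fat. The median log2 difference of the list was 4.64, also with genes listed at 0 in a group set to 3 counts, against 0.12 over all genes. Sparc, a secreted matrix-binding glycoprotein, measured 97.9, 93.7 and 86.2 CPM in ganglia and 1924, 2429 and 2068 in microglia, against 0.769 to 1.43 in spleen and 15.9 to 28.1 in fat. Ganglia were thus above every spleen and fat library and far below every microglia library (5.82 ± 0.20, adjusted p = 3.56e-11; ganglia minus microglia -4.53 ± 0.27, adjusted p = 2.1e-08). The ganglion mean ranged from 1.76% of the microglial mean for the fructose transporter Slc2a5 to 56.4% for the growth factor receptor Csf1r, with a median of 18.3%. It was under 10% for 9 genes and over 50% for 1. Slc2a5 averaged 7.57 CPM in ganglia and 430.4 in microglia, and was at 0 in all spleen and subcutaneous fat libraries. In 2 of the libraries compared, its 0 stood against at least 100 raw counts. The list holds genes known from microglia, which are part of the nervous-tissue side, and the chosen markers Cx3cr1, Siglech, Trem2 and Tmem119. Calls in the higher direction were therefore largely set in advance. The list was also drawn up with earlier results of these libraries known, so its count is not independent evidence of its direction.

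Over all shared higher genes the ganglia were likewise the lower of both nervous-tissue groups. Ganglia minus microglia passed the test with a lower level in ganglia for 164 of the 626 and with a higher level for 6, while 456 were not called. The called share was 27.2%, against 9.76% of all tested genes (6.25% higher and 3.51% lower in ganglia). The 6 genes higher in ganglia were Apod, C3ar1, Gatm, Tagap, Tlr2 and Zfp599. Among the 435 shared lower genes, 143 were higher in ganglia than in microglia, 1 was lower (Galnt6) and 291 were not called. The median difference between ganglia and microglia was -0.93 log2 units over the shared higher and 1.10 over the shared lower genes, against -0.10 over all genes. Ganglia therefore stood between microglia and the other macrophages more often than beyond microglia, in both directions.

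**Figure D2:**
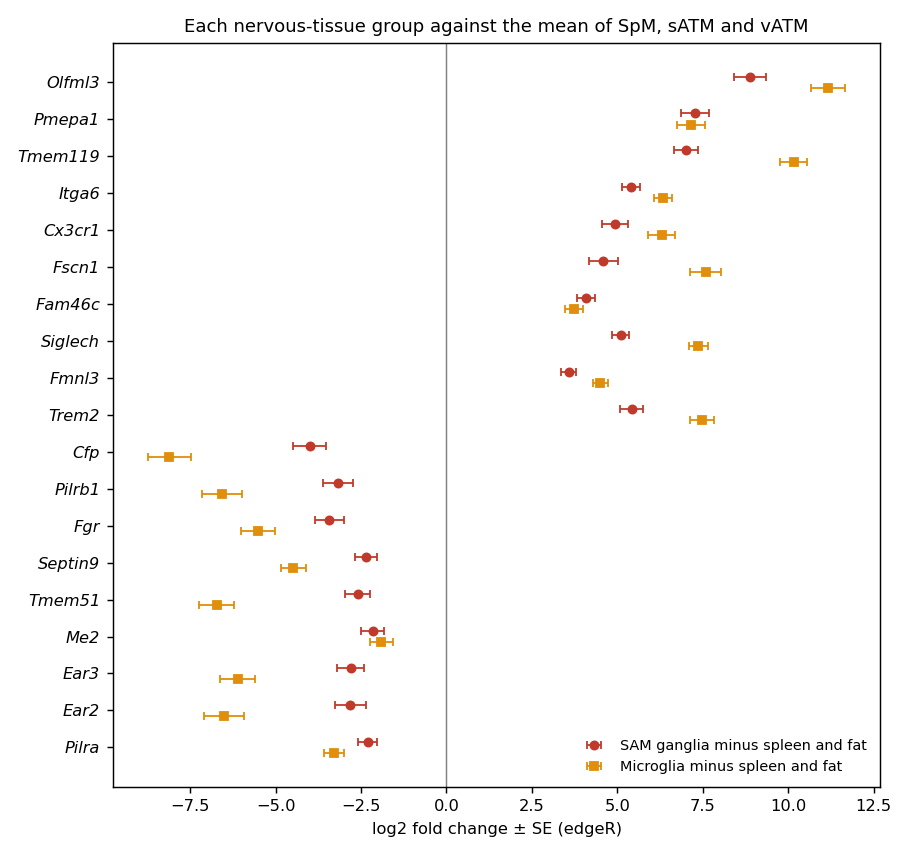
Log2 fold change of ganglia and of microglia against the same mean of spleen and fat groups, with its SE, for 10 genes shared higher and 9 shared lower. Points of microglia lie farther from 0 than those of ganglia except in Pmepa1, Fam46c and Me2, and both groups share the reference libraries.

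Among the macrophage lists, the TGF-beta pathway had the next highest share of shared higher genes. TGF-beta is held latent outside the cell, released by integrins that contain alpha V, and signals through the receptors TGFBR1 and TGFBR2 to SMAD proteins. Of 24 genes tested, 8 were shared higher and none shared lower, beside 4.27% and 2.97% of all tested genes. The list median was 1.03 (0.92 with genes listed at 0 in a group set to 3 counts), against 0.12 over all genes. These shares and this median are the background of every list described below as well. No list count was tested against them. On the activating side Itgb5, an alpha V partner, measured 218, 331 and 259.7 CPM in ganglia, 495, 671 and 677 in microglia, 173 to 218 in spleen and 25.5 to 44.0 in fat. Ganglia and spleen met at the edge there, since the highest spleen library and the lowest ganglion library both had 218, and the difference of 2.80 ± 0.18 (adjusted p = 1.66e-08) came mostly from fat. The type I receptor gene Tgfbr1 (chr4:47353222-47414924, plus strand) measured 200.4, 226 and 152 CPM in ganglia and 926, 678 and 663 in microglia. Spleen followed with 88.4, 71.4 and 55.1, then subcutaneous fat with 57.0 and 11.7 and visceral fat with 13.8 and 13.6, all below the lowest ganglion library (3.57 ± 0.30, adjusted p = 4.82e-07).

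The type II receptor gene Tgfbr2 had the smaller difference of 1.22 ± 0.16 (adjusted p = 3.46e-05), with ganglia at 371 to 480.1 CPM, microglia at 346 to 379 and the others at 104 to 263. Its difference between ganglia and microglia did not pass (0.18 ± 0.23, adjusted p = 0.783). Among inhibitors and targets of the pathway, Smad7, which blocks receptor signaling, averaged 24.3 ± 5.61 CPM in ganglia (SD, n = 3) and 59.6 ± 12.6 in microglia (n = 3) against 1.82 to 5.04 in the other groups (3.56 ± 0.33, adjusted p = 8.27e-07). The SMAD repressors Ski (1.48 ± 0.17) and Skil (2.35 ± 0.39) were shared higher as well. The ligand gene Tgfb1 did not pass (-0.17 ± 0.17, adjusted p = 0.557), nor did Smad3 reach the fold required (0.83 ± 0.20). Eng, a co-receptor, was called higher but lay between the groups.

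Transcription factors divided in both directions. Of 27 tested, 6 were shared higher and 5 shared lower, beside 4.27% and 2.97% of all tested genes. Sall1, the factor that specifies microglia, averaged 12.9 ± 2.29 CPM in ganglia and 405 ± 23.5 in microglia, while the single spleen and subcutaneous fat libraries above 0 had 1.21 and 0.256 and visceral fat had none. The ganglion level was 3.18% of that in microglia, yet every ganglion library, at 10.4, 14.9 and 13.4 CPM, exceeded every spleen and fat library. Mef2c, a factor that restrains microglial activation, measured 242, 175 and 166 CPM in ganglia and 380.0, 208 and 227 in microglia, against 3.52 to 4.91 in spleen and 37.9 to 102 in fat (2.92 ± 0.23, adjusted p = 1.47e-07). Its levels in ganglia and microglia overlapped. Bhlhe41 (5.32 ± 0.39), Cebpa (1.32 ± 0.16), Mef2a (1.63 ± 0.29) and Sall3 (5.29 ± 0.84) were the other 4, and Sall3 was near 0 in ganglia with 1.71 ± 2.73 CPM.

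The paralog of Bhlhe41 went the other way. Bhlhe40, a transcriptional repressor, measured 27.5, 17.6 and 24.1 CPM in ganglia, 1.13, 0 and 0 in microglia, and 35.7 to 72.9 in spleen and fat. No libraries overlapped (-3.93 ± 0.35, adjusted p = 5.12e-07), but ganglia lay close to spleen. Id2 (-2.04 ± 0.23) and Batf3 (-1.61 ± 0.25) were shared lower too. The nuclear receptor genes Nr1h3 and Pparg, which control lipid genes, were at 0 in all microglia libraries and averaged 2.82 and 3.28 CPM in ganglia, below spleen at 219.7 and 90.0, subcutaneous fat at 7.60 and 15.2, and visceral fat at 3.79 and 8.46. Ganglia 3 for Nr1h3 and ganglia 1 for Pparg overlapped visceral fat. Spi1, which encodes PU.1, did not pass (0.13 ± 0.17, adjusted p = 0.646), and Irf8 was below the fold required (0.92 ± 0.18).

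Receptors for nucleotides, chemokines and sialic acids added further shared genes. P2ry12, through which microglial processes move toward ADP, measured 219, 198 and 204 CPM in ganglia and 4738, 3647 and 3462 in microglia, against 42.9 to 92.8 in spleen and 7.16 to 30.5 in fat. Ganglia were above all of the latter but far from microglia (5.03 ± 0.22, adjusted p = 4.03e-10; ganglia minus microglia -4.25 ± 0.31, adjusted p = 1.69e-07). P2ry6, the receptor for UDP, behaved otherwise: ganglia at 192, 264 and 238 CPM and microglia at 181, 248 and 269 lay at one level, above fat at 45.3 to 132 and spleen at 0.462 to 1.98. Its difference was 3.43 ± 0.26 (adjusted p = 7.29e-08), and that between ganglia and microglia was -0.01 ± 0.33. Of 17 purine genes tested, 4 were shared higher (P2ry12, P2ry6, P2rx7 and P2rx1) and 1 shared lower (P2rx4), beside 4.27% and 2.97% of all tested genes.

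Of 16 chemokine receptor genes, 2 were shared higher, Cx3cr1 among them, and none shared lower. Of 7 Siglec family genes, Siglech and Cd33 were shared higher. Cd33, an inhibitory receptor, had 84.2 to 114 CPM in ganglia and 103 to 126 in microglia, so that these overlapped, against 2.77 to 9.33 in spleen, 7.18 and 8.95 in subcutaneous fat, and 33.5 and 36.3 in visceral fat (3.14 ± 0.23, adjusted p = 5.85e-08). None of the 21 chemokine genes was shared in either direction, although 4 were called higher and 3 lower (5.9% and 5.39% of all tested genes). Their summed level was 2017 to 2437 CPM in ganglia, 250.9 to 331 in microglia, 145 to 211 in spleen and 1573 to 4374 in fat. Both visceral fat libraries lay above every ganglion library, subcutaneous fat lay on either side of them, and microglia and spleen were lowest.

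Complement genes divided in both directions. Of 22 tested, 4 were shared higher and 6 shared lower, beside 4.27% and 2.97% of all tested genes. The anaphylatoxin receptor gene C3ar1 averaged 475 ± 59.6 CPM in ganglia and 201 ± 20.4 in microglia (ganglia minus microglia 1.24 ± 0.37, adjusted p = 0.0431), with visceral fat at 194 ± 8.88 (n = 2), in the range of the microglia libraries. C5ar2 (1.23 ± 0.21) and C1qa (1.24 ± 0.24) were shared higher as well. The lower set held the alternative pathway activators: properdin (Cfp), factor B (Cfb, -4.21 ± 0.70) and C3 (-2.62 ± 0.38), besides the receptor subunit Itgax, the regulator Cd55 and the receptor Vsig4.

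Cfp had the widest gap of the lower genes taken by the naming rule. Cfp (chrX:20925454-20931555, minus strand) encodes properdin, which stabilizes the C3 convertase, and measured 53.9, 46.8 and 31.0 CPM in ganglia and 1.91, 3.96 and 2.29 in microglia. Spleen had 1031, 1503 and 1205 CPM, visceral fat 637 and 689, and subcutaneous fat 118 and 732. Subcutaneous fat 1 was the lowest of the latter and still above every ganglion library (-6.06 ± 0.41, adjusted p = 6.8e-08). Ganglia were above microglia by 4.10 ± 0.57 (adjusted p = 0.00016).

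Fgr, Pilra and Pilrb1 were also among the 10 lower genes with the widest gap. Fgr (chr4:132974095-133001882, plus strand), a Src family kinase, measured 12.7, 20.3 and 7.09 CPM in ganglia and 0.565 to 4.89 in microglia, against 216 to 316 in spleen, 210.1 and 124 in subcutaneous fat, and 71.1 and 62.7 in visceral fat (-4.47 ± 0.34, adjusted p = 1.6e-07). The paired immunoglobulin-like receptor genes Pilra and Pilrb1, inhibitory and activating partners on chromosome 5, were both lower. Pilra had 21.5 to 41.0 CPM in ganglia and 8.76 to 18.9 in microglia, against 311 to 392 in spleen and 86.5 to 112 in fat, with no overlap (-2.80 ± 0.22, adjusted p = 1.05e-07). Pilrb1 had 1.62 to 14.3 CPM in ganglia and under 1 in microglia, against 187 to 206 in spleen and 33.0 to 50.3 in fat (-4.87 ± 0.38, adjusted p = 2.17e-07), but reads may be split between near-identical Pilrb copies, so its value is uncertain. Pilra was the last of the 61 candidates taken, with a gap of 1.73 log2 units, and Pilrb2 the first left out, with 1.72.

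The promoters of Pilra (chr5:137836269-137836528, minus strand) and of the spleen and fat lectin gene Fcna (chr2:25627965-25628224, minus strand) are shown as lower genes with a GAGGAA match, in the same window, source and notation as above.
Pilra: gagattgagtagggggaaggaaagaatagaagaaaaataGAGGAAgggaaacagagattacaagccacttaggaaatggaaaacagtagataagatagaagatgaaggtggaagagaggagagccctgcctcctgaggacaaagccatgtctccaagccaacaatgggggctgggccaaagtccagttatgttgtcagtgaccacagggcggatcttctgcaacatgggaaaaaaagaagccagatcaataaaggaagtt
Fcna: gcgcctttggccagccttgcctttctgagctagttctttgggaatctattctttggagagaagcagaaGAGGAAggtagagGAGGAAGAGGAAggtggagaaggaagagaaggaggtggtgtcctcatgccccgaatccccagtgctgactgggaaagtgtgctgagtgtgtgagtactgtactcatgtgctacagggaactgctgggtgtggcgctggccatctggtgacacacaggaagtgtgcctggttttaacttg
The match began 211 bases before the start in Pilra, and 3 matches began 182, 169 and 163 bases before it in Fcna, the last 2 of them adjoining. The letters occurred in 25.9% of the 340 shared lower promoters in the table, beside 28.3% of all promoters, and in 4 of the 7 of the 10 named lower genes that had one (Cfp, Fgr, Septin9 and Pilra). Fcna itself, a ficolin that binds sugars on microbes and opens the lectin pathway of complement, measured 2.78, 2.55 and 1.21 CPM in ganglia and at most 0.953 in microglia. Spleen had 920.4 to 1132 CPM, visceral fat 124 and 147, and subcutaneous fat 4.35 and 35.0, so all 7 exceeded the nervous-tissue libraries (-6.75 ± 0.48, adjusted p = 1.02e-07).

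**Figure D3:**
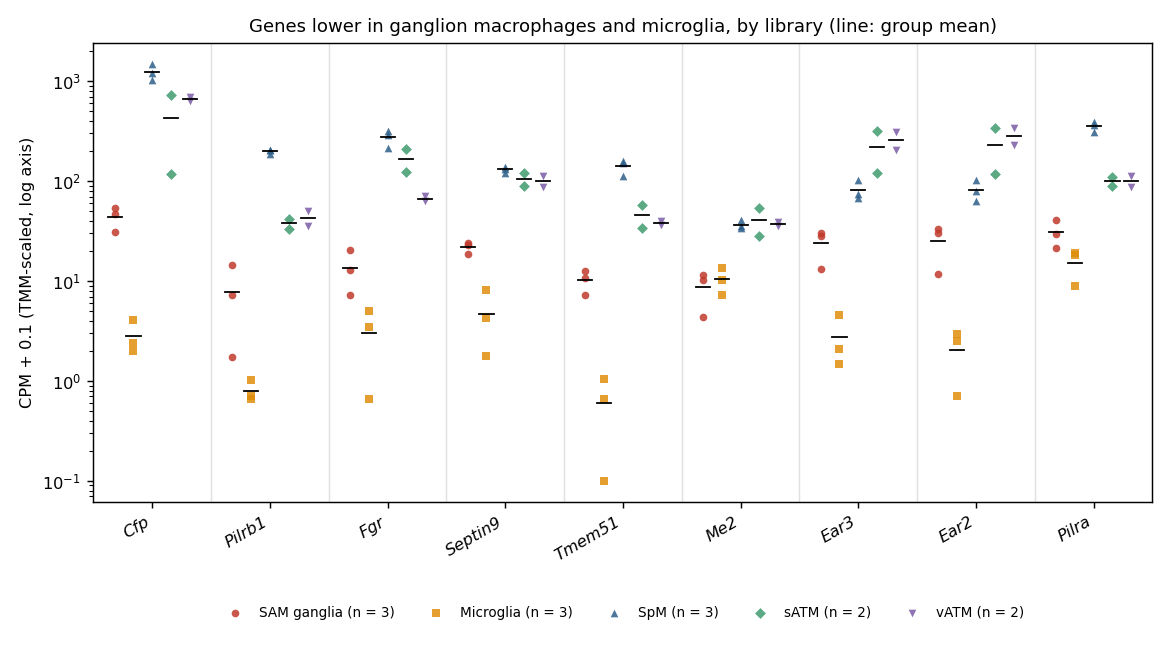
Level of 9 genes lower in both nervous-tissue groups, in CPM plus 0.1 on a log axis, with 1 point per library and a line at each group mean. All 6 libraries of ganglia and microglia lie below the 7 others in every gene, and microglia lie below ganglia in each gene but Me2.

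Septin9, Tmem51, Me2 and 3 Ear genes completed the lower set. Septin9 (chr11:117199661-117362325, plus strand), a filament-forming GTPase, measured 18.6 to 23.9 CPM in ganglia, 1.70 to 8.06 in microglia and 88.3 to 139.6 in the others (-3.42 ± 0.25, adjusted p = 7e-08). Tmem51 had 7.17 to 12.5 CPM in ganglia and at most 0.953 in microglia, against 33.8 to 159 in the others (-4.67 ± 0.32, adjusted p = 3.21e-08). Its 0.565 and 0 CPM in microglia 2 and 3 stood against 400 and 322 raw counts. In the raw table these were 35.0 and 22.7 CPM, with visceral fat 1 at 39.0, and both nervous-tissue means stayed lower. Me2, the mitochondrial malic enzyme, was the only one of these 10 genes at one level in ganglia (4.25 to 11.3 CPM) and microglia (7.18 to 13.6), below the 28.1 to 53.7 of the others (-2.03 ± 0.25, adjusted p = 2.06e-05). The eosinophil-associated ribonuclease genes Ear2, Ear3 and Ear12 also met the rule. Ear3 and Ear12 have the same coordinates and the same corrected counts in the table and Ear2 overlaps them, so they stand for 1 uncertain measurement: Ear2 averaged 24.8 ± 11.4 CPM in ganglia, 1.95 ± 1.18 in microglia and 81.8 to 285 in the other groups.

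Genes of the Trem2 pathway and of damage-associated microglia were divided. Of 22 tested, 5 were shared higher (Trem2, Inpp5d, Cd9, Cd63 and Csf1) and 5 shared lower (Lgals3, Itgax, Fabp5, Syk and Lpl). Lgals3, which encodes the lectin galectin-3, measured 119, 91.2 and 127 CPM in ganglia, 8.84, 7.63 and 12.8 in microglia, 301 to 379 in spleen and 529 to 1177 in fat. Its order was the same in every library, microglia lowest, then ganglia, spleen and fat (-4.14 ± 0.23, adjusted p = 2.93e-09; ganglia minus microglia 3.51 ± 0.32, adjusted p = 1.64e-06). Syk, the kinase downstream of Tyrobp, was lower by a small margin (-1.01 ± 0.15, adjusted p = 0.000158). Apoe did not pass (-0.26 ± 0.21, adjusted p = 0.457), since ganglia were above and microglia below the other groups. It averaged 27253 ± 8928 CPM in ganglia, 693 ± 217 in microglia and 4214 to 6725 elsewhere.

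Lipid and sterol genes held more shared lower than shared higher members. Of 21 lipid handling genes, 2 were shared higher and 6 shared lower, beside 4.27% and 2.97% of all tested genes. The list median was -1.49, against 0.12 over all genes. The summed level of the list, which includes Apoe, was 18630 to 34770 CPM in ganglia, 1426 to 2091 in microglia and 5323 to 10910 in spleen and fat, so it was highest in ganglia and lowest in microglia. The cholesterol exporter gene Abca1 was one of the higher (163 to 273 CPM in ganglia, 212 to 287 in microglia, 52.2 to 114 in the others; 1.52 ± 0.17, adjusted p = 7.06e-06). The lipase gene Lpl passed in both groups, with ganglia alone at -2.56 ± 0.63 (adjusted p = 0.0235) and microglia alone at -4.67 ± 0.71 (adjusted p = 0.000353). Of 16 sterol synthesis genes, 4 were shared lower (Insig1, Cyp51, Sqle and Mvd) and none higher. Cyp51 was the weakest of them (-1.05 ± 0.24) and fell out of the calls in 11 of 30 alternative analyses, among them those without microglia 3, ganglia 3, subcutaneous fat 1 or spleen 1.

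Antigen presentation did not follow the nervous tissue. Of 11 MHC class II genes, 7 were called lower (H2-Aa, H2-Ab1, H2-Eb1, H2-DMb1, H2-DMb2, Cd74 and Ciita), beside 5.39% of all tested genes. None of these was shared, because microglia were lowest and ganglia were within the range of fat. H2-Aa averaged 4085 ± 221 CPM in ganglia and 43.4 ± 49.1 in microglia, against 704 ± 134 in spleen, 3397 ± 2207 in subcutaneous fat (n = 2) and 4672 ± 415 in visceral fat. The 2 genes shared higher encode H2-O, which restrains peptide loading. H2-Ob measured 17.6, 28.0 and 21.7 CPM in ganglia and 18.7, 23.7 and 20.9 in microglia, and 3.13 to 8.04 in the others, with no overlap (2.05 ± 0.22, adjusted p = 3.7e-06). H2-Oa was lower in level and also apart (2.88 ± 0.38, adjusted p = 3.68e-05).

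Among innate sensors, 4 of 20 Toll-like receptor and adaptor genes were shared higher (Tlr2, Ly86, Tlr7 and Tlr13) and 1 shared lower (Tlr11). Tlr2, a receptor for bacterial lipoproteins, measured 323, 298 and 276 CPM in ganglia, 101, 109 and 88.5 in microglia and 53.4 to 76.7 in the others. It is one of the few shared genes with ganglia above microglia (1.44 ± 0.15, adjusted p = 3.44e-06; ganglia minus microglia 1.58 ± 0.22, adjusted p = 0.000121). Of 9 Fc receptor genes, Fcrls and Fcgr1 were shared higher. Fcrls was near 0 in spleen (at most 1.08 CPM) and reached 703 in subcutaneous fat 2 and 674.8 in visceral fat 2, above the lowest ganglion library at 613, and lost its call against fat alone (4.64 ± 0.41 with spleen included). Of 16 efferocytosis genes, 4 were shared higher (Itgb5, Pros1, Elmo1 and Itgav) and Timd4, a receptor for phosphatidylserine, shared lower. Timd4 met the position rule only barely, with means of 7.95 CPM in ganglia and 7.99 in subcutaneous fat and overlapping libraries. In the raw table ganglia averaged above subcutaneous fat for Timd4 (16.5 against 9.98 CPM), and its call was lost. Of 32 lysosomal genes, 4 were shared higher, Lgmn, Ctsf and Ctss among them, and Lipa, the acid lipase, lower, beside 4.27% and 2.97% of all tested genes. Legumain (Lgmn) measured 639.5 to 774 CPM in ganglia and 1758 to 1830.1 in microglia, but up to 658 in spleen, and was not called against spleen alone.

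Growth factors and receptors for neuronal signals gave small numbers. Of 15 growth and neurotrophic factor genes, Tgfa, Pdgfb and Pdgfa were shared higher. Tgfa, a ligand of the EGF receptor, had 4.40, 7.39 and 2.23 CPM in ganglia and 55.0, 44.9 and 50.4 in microglia, with all others at or below 0.66 (5.46 ± 0.44, adjusted p = 1.48e-07). Of 15 neurotransmitter receptor genes, 3 were shared higher, Hrh2 and Grm3 among them, and Hrh1 lower. Grm3 was at 0 in all spleen and visceral fat libraries and averaged 1.98 CPM in ganglia and 0.667 in microglia. Of 20 axon guidance genes, Plxna4 (2.84 ± 0.39) and Epha2 (4.45 ± 1.01) were higher and Plxna1 (-3.06 ± 0.23) lower.

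Genes of resident adipose and border macrophages and of red pulp macrophages gave no shared higher gene. Of 19 in the first list, 3 were shared lower (Fcna, Timd4 and Cd209g, median -1.80), and of 15 in the second, 3 (Fcna, C6 and Cd5l, median -2.90). C6, a component of the membrane attack complex, averaged 375 ± 65.6 CPM in spleen, 5.97 in subcutaneous fat, 4.08 in visceral fat, 0.697 in ganglia and 0.523 in microglia. The low values of microglia 2, microglia 3 and ganglia 3 stood against 450, 297 and 424 raw counts. In the raw table C6 averaged 10.4 CPM in ganglia and 20.4 in microglia, above visceral fat at 8.90, and its call was lost. No immediate-early gene of 20 and no interferon-stimulated gene of 18 was shared in either direction. Of these lists 0 were called higher and 4 and 2 called lower, beside 5.9% and 5.39% of all tested genes.

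**Figure D4:**
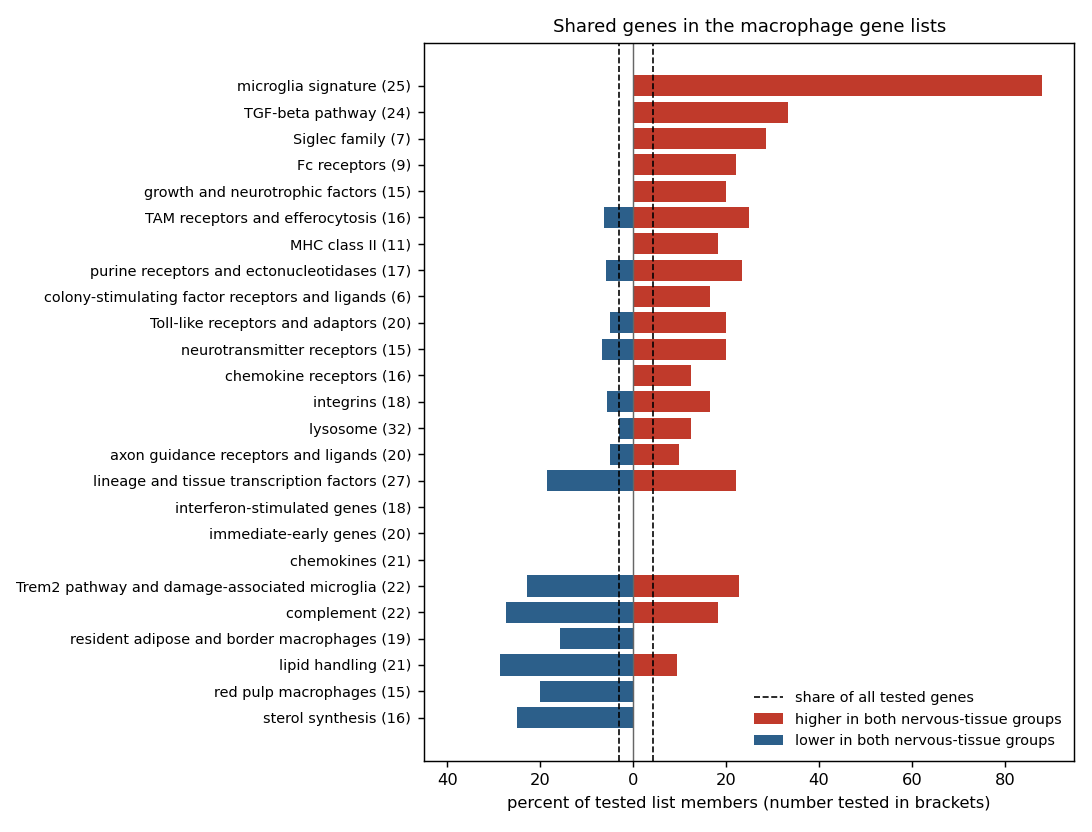
Share of the tested members of each macrophage gene list that were shared higher (right) or shared lower (left) in ganglia and microglia, in percent, with the number tested in brackets. Dashed lines mark the 4.27% and 2.97% of all tested genes. The microglia signature reaches 88%, the TGF-beta pathway is next, and sterol synthesis, red pulp and border lists hold shared lower genes and no shared higher ones.

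Transcripts of neurons and glia were measured in all groups. No sum of a neuronal or glial list placed every nervous-tissue library above every other library, though those of central neurons and oligodendrocytes came near it. Of 15 genes of neurons of any kind, 8 were called higher, beside 5.9% of all tested genes, and none was shared. The mean of subcutaneous fat was above that of microglia in all 8. The summed level of the 15 genes was 117 to 168 CPM in ganglia, 34.5 to 42.4 in microglia, 43.5 to 72.9 in subcutaneous fat, 24.4 to 37.4 in visceral fat and 11.2 to 19.1 in spleen. The sympathetic neuron list had 6 of 15 called higher, beside the same 5.9%. Its 1 shared gene was Prph, a neuronal intermediate filament (6.48, 7.53 and 10.7 CPM in ganglia and 1.73, 3.96 and 0.306 in microglia). Prph lost its call in 9 of 30 alternatives, among them those without microglia 2, ganglia 2, subcutaneous fat 2 or visceral fat 1. Central neuron (2 of 6 shared), oligodendrocyte (2 of 7) and astrocyte lists (3 of 9) had the highest shares among lists of other cells. All of these were shared higher, beside 4.27% of all tested genes. Astrocyte sums were 29.1 to 97.1 CPM in ganglia and 118 to 159.6 in microglia, with spleen at 92.5 to 129 and fat at 9.27 to 27.1. Sums for Schwann cells and satellite glia, a list that includes Apoe, were 17170 to 33190 CPM in ganglia, 799 to 1224 in microglia and 3314 to 7872 in the others. Summed levels for oligodendrocytes were 88.4 to 231 CPM in ganglia, 60.3 to 93.9 in microglia, and 28.7 to 63.1 in the others.

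Mbp, a myelin gene, averaged 61.7 ± 65.2 CPM in ganglia and 27.6 ± 6.39 in microglia. It was highest in ganglia 2, at 135 CPM, and its difference turned to -0.20 in the raw table. Defining genes at 0 in every ganglion library were Slc17a6, Gad2 and Slc32a1 of central neurons, and in every microglia library Slc17a6, Gad1, Gad2, the oligodendrocyte gene Mog and the Schwann cell genes Prx and Gfra3. In these bulk libraries a few neurons or glia and RNA taken up or carried by macrophages cannot be told apart, nor can fewer cells of a type and less RNA per cell. Shared genes that neurons or glia express as well may include part of this signal, and that part was not tested. Fibroblast (0 of 8), B cell (0 of 8), T cell (0 of 5), monocyte (0 of 10) and neutrophil (0 of 6) lists had no shared gene. The dendritic cell list had Siglech higher and Batf3 lower, of 11 tested, the endothelial list Vwf lower, of 6, and the NK cell list Klrk1 lower, of 5.

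**Figure D5:**
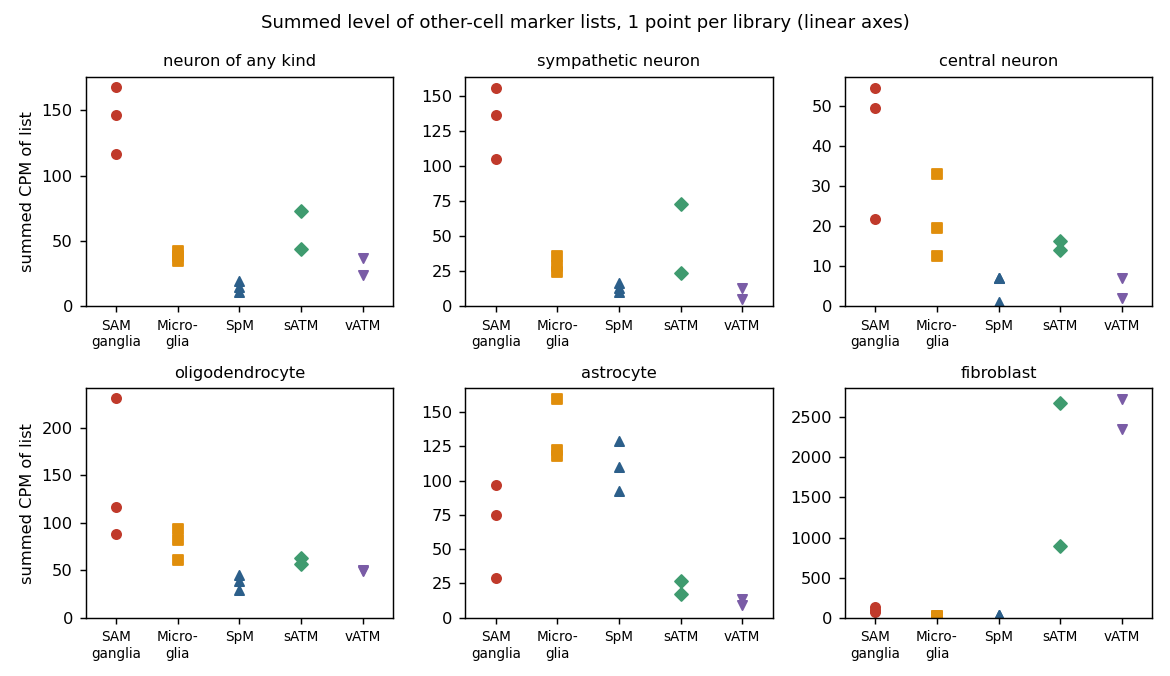
Summed CPM of 6 marker lists of other cells, with 1 point per library and linear axes that differ between panels. Neuronal sums are highest in ganglia, oligodendrocyte sums reach 231 in ganglia, and fibroblast sums are 889.9 to 2724 in fat and at most 130.5 elsewhere.

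The 2 nerve fiber libraries, which took no part in the comparison, had the leading genes at the following levels, on a scaling of all 15 libraries. Cx3cr1 measured 236 and 387 CPM, Trem2 59.0 and 78.9, Siglech 38.2 and 86.9, Itga6 48.4 and 42.3, Pmepa1 24.3 and 46.8, and Fam46c 26.3 and 49.4. Tmem119 was at 7.94 and 4.88 and Olfml3 at 20.8 and 15.5. Of these 8 genes, all but Fam46c were lower in both fiber libraries than in any ganglion library. Of the lower genes, Cfp measured 86.8 and 85.5 CPM, Lgals3 238 and 469, and Fcna 0.992 and 0.61. These libraries were dissected from subcutaneous fat, had the highest mean DNA background (915) and were digested with hyaluronidase and then collagenase, so the values are given without a test.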

How the data were processed

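Reads had been aligned to mm10, and STAR and HOMER are named, per the submitters' processing notes, which give no versions or settings here. The main values were estimated counts, deposited after the authors' removal of DNA contamination; how it was done is not given in the sources used here, and 45.3% of values were whole. They were rounded. Raw gene-body read counts and RPKM values, also deposited by the authors, served as checks and alternatives. In the raw table the gene length equals the genomic span for 99.5% of genes, so introns and DNA are counted, and neither table is stated to use strand.

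Groups came from the labels. One mean per group was fitted to 13 libraries with edgeR 4.0.16 (R 4.3.3): filterByExpr at a minimum count of 10, TMM factors (0.666 to 1.4), quasi-likelihood F-test, Benjamini-Hochberg adjustment over 14648 genes, SE as the log2 difference divided by the square root of F. On simulated data with 50 changed genes per fold, 42% of genes changed 2-fold, 88% at 4-fold and 96% at 8-fold were called. A 2-fold change lies at the required log2 difference of 1 itself. In the simulation ganglia and microglia changed alike and the other groups had the same mean. Real groups often differed within each side, so these shares are not the sensitivity in these data. DESeq2 1.42.0 and limma 3.58.1 gave alternatives. Same-numbered libraries share only a number in the labels, and their deviations from the group means did not all correlate above 0.1, so no block was fitted in the main test. The values did differ by number. In each group compared, library 1 had the least DNA background (31.6 to 98.0, the rest 140 to 1043). It also had the fewest genes above 0 (12902 to 15584, the rest 16871 to 17923). What the number stands for is not given, and a block on it was an alternative.

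The members and lists were chosen with earlier results of these data known. Named were, per direction, the 10 shared genes with the widest gap in mean log2 CPM between the nearer nervous-tissue group and the nearest other, with no overlap of libraries and at least 30 CPM on the higher side, then the marker and sort genes and up to 2 shared genes per list. Further list members, Arsb, Pilrb2 and the genes in the closing section were named after their values were seen. Some items are not reported here.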

Additional observations from a re-analysis of the deposited data

Results flagged for a closer look

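For 29 named genes the levels of ganglia and of microglia differed from each other by edgeR's test (adjusted p below 0.05 and at least 1 log2 unit), although both lay on the same side of spleen and fat. Among genes higher in nervous tissue, ganglia were below microglia by the following log2 differences: -2.28 for Olfml3, -3.16 for Tmem119, -2.99 for Fscn1, -2.28 for Siglech, -2.05 for Trem2, -4.53 for Sparc, -4.25 for P2ry12 and -1.19 for Itgb5. The value was -1.97 for Tgfbr1, -1.51 for Bhlhe41, -4.96 for Sall1, -1.37 for Lgmn, -3.39 for Tgfa and -1.13 for Pros1. Tlr2 was higher in ganglia, by 1.58.

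Among genes lower in nervous tissue, ganglia were above microglia by 4.10 for Cfp, 3.41 for Pilrb1, 2.08 for Fgr, 2.13 for Septin9, 4.12 for Tmem51, 3.69 for Ear2 and 3.30 for Ear3 and for Ear12, which have identical counts. The same difference was 3.51 for Lgals3, 3.79 for Timd4, 2.38 for Plxna1, 1.92 for Insig1 and 1.53 for Cyp51. It was 5.74 for Hrh1, which rested on ganglia 2 at 8.74 CPM, with the other ganglion libraries at 0.231 and 0.405 and microglia at 0.0867, 0 and 0. The zeros of microglia stood against 601 and 419 raw counts, and in the raw table Hrh1 in neither group was apart from spleen and fat.

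For 17 of the named genes shared higher, both nerve fiber libraries, which no comparison used, lay above all spleen and fat libraries. The fiber means were 18.1 CPM for Olfml3, 35.5 for Pmepa1, 6.41 for Tmem119, 45.4 for Itga6, 19.0 for Fscn1, 37.9 for Fam46c, 62.5 for Siglech, 69.0 for Trem2, 115 for Sparc, 19.4 for H2-Ob and 497 for Tlr2. Markers of neurons and glia showed it too, with fiber means of 27.3 CPM for Prph, 49.7 for Camk2a, 85.2 for Meg3, 123 for Mbp, 64.6 for Slc1a2 and 34.9 for Aldoc. Other named genes shared higher had fiber libraries that overlapped spleen or fat, among them Cx3cr1, Fmnl3, P2ry12, P2ry6, Tgfbr1, Cd33 and Sall1. How many of all tested genes held the same position in fibers was not counted.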

How the results depend on the processing

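Up to 30 alternatives were run per result. The shared counts held within 1.5 times except in the raw gene-body table, with 1 tissue as reference, and where named here. Leaving out each library in turn gave 485 to 659 shared higher and 357 to 515 shared lower genes, 18 to 56 and 1 to 17 by every pair of groups, and 115 to 200 shared higher genes lower in ganglia. By every pair, counts of higher and lower genes were 80 and 49 with no filter, 107 and 32 by DESeq2, 29 and 2 with all 15 libraries, 29 and 1 on log2(RPKM + 0.1), 19 and 1 on RPKM with no filter, 24 and 3 without the pair of nervous-tissue libraries with the most DNA, and 21 and 3 without the 3 such libraries, an alternative added after seeing the data, which also left 64 shared higher genes lower in ganglia. With the replicate block the shared counts were 655 and 443 and the lower count by every pair was 22. Same-numbered libraries had a median correlation of deviations of 0.22 (-0.18 to 0.63), a hint of pairing from the data that not every pair showed. Others had -0.15 (-0.55 to 0.43). Deviations sum to 0 within a group, so the values of these other pairs offset those of same-numbered pairs and are no separate evidence. The raw table gave 71 called higher and 109 lower, 68 and 74 shared, and 0 and 0 by every pair (edgeR; 30 and 23 at an unadjusted p under 0.05), and 0 shared higher genes lower in ganglia (35 unadjusted), with a biological coefficient of variation of 0.774 against 0.583. Of the called genes the higher share was 39.4% there against 52.3%. With fat alone as reference 843 genes were shared lower and 247 shared higher genes were lower in ganglia, with spleen alone 969 were shared higher and 972 lower, and log2(RPKM + 1) gave 297 lower in ganglia; the cause was not tested. Genes listed at 0 against raw counts left out, 513 and 335 were shared. Adgre1, not called, turned to -0.35 in the raw table, -1.04 against spleen alone, and -0.0851 (without ganglia 2) to 0.189 (without subcutaneous fat 2) with 1 library left out, also below 0 without microglia 1 (-0.03), subcutaneous fat 1 (-0.002) and visceral fat 1 (-0.05); Mbp turned to -0.20 in the raw table. Of 65 named called genes 30 were called in every alternative and 20 more in all but the raw table. Depth limits levels below 3 counts, 0.24 to 1.18 CPM, and intervals there would cover counting error only.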

Other observations

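Some genes outside the lists were among the 53 higher by every pair of groups, and 5 of them are given here. Mmp14, a membrane-bound matrix metalloproteinase, averaged 67.7 CPM in ganglia and 33.9 in microglia against 1.71 in spleen, 6.91 in subcutaneous fat and 4.54 in visceral fat (3.66 ± 0.27, adjusted p = 5.8e-08 by edgeR). Mmp2, a gelatinase that MMP14 activates, averaged 17.3 and 27.2 CPM against at most 1.99 in the other groups (4.06 ± 0.32). The small GTPase gene Rhob averaged 468 CPM in ganglia and 343 in microglia against 39.3 to 94.1 (2.52 ± 0.18), and the lysophosphatidic acid receptor gene Lpar6 averaged 205 and 192 against 14.4 to 37.6 (2.88 ± 0.27). Srgap2, which shapes membrane protrusions, averaged 119 and 289 CPM against 48.2 to 51.8 (1.91 ± 0.14).

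On the lower side, Ece1, the endothelin-converting enzyme, averaged 6.19 CPM in ganglia and 6.04 in microglia against 112 in spleen, 23.1 in subcutaneous fat and 20.2 in visceral fat (-2.59 ± 0.21, adjusted p = 1.49e-07 by edgeR). Abcg3 was likewise at one level in ganglia and microglia, 2.65 and 2.64 CPM, and averaged 184.7 in spleen, 11.4 in subcutaneous fat and 14.1 in visceral fat (-3.55 ± 0.27). These genes were chosen after their values were seen.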
